A study of Mus musculus with 6 samples.

Results

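The ErbB receptors and the EGF family of ligands were followed in cochlear explants with and without neomycin, an aminoglycoside antibiotic that kills hair cells (HCs). The members were the rows for 10 gene symbols, the receptors Egfr, Erbb2, Erbb3 and Erbb4 and the ligands Nrg1, Hbegf, Egf, Tgfa, Areg and Btc, out of 24421 symbols in the count table. All 10 passed the filter on low counts. RNA-seq was performed on whole cochleae of wild-type mice at postnatal day 2, kept in culture for 12 h, given 1 mM neomycin over 6 h and then cultured for 5 days with 10 μM EdU, a thymidine analog. The control group was taken as the same culture without neomycin, since the sample labels carry the same protocol text for both groups. There were 3 control and 3 neomycin libraries, each from a pool of 6 to 8 cochleae dissected free of the tectorial membrane, modiolus and stria vascularis anlage. Nothing in the labels says whether the 3 pools of a group were cultured separately, so the p-values measure the spread between these libraries, which may in part be technical.

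ErbB receptors are membrane tyrosine kinases that pair up when a ligand binds and then signal through the RAS-ERK and PI3K-AKT pathways. EGFR binds EGF, TGF-alpha and amphiregulin, ERBB3 and ERBB4 bind neuregulins, and HB-EGF and betacellulin bind both EGFR and ERBB4. ERBB2 has no known ligand of its own and serves as the partner of the others, while the kinase of ERBB3 is nearly inactive, so ERBB3 signals mainly through ERBB2. In the ear, neuregulin 1 from spiral ganglion neurons acts on ERBB2 and ERBB3 of Schwann cells, which need this signal to survive and to myelinate.

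The libraries held 50471116 to 66068108 counted reads. As a check of the labels, 14 of 15 HC markers were lower after neomycin and 1, Atoh1, was not called. Their summed level was 875 to 1019 CPM in control and 305 to 359 CPM after neomycin, where CPM are counts scaled to the size of the library, with TMM factors. Of 8 endothelial markers 6 were lower, with a median log2 fold change of -2.10 over the list. Their sum, 279 to 313 and 266 to 317 CPM, was mostly Emcn, which was not called, and the other 7 summed to 41.2 to 54.4 CPM in control and 19.0 to 20.9 CPM after neomycin. Of 10 macrophage markers 5 were higher, with sums of 94.1 to 124 and 135 to 168 CPM. The called shares were 93.3% of HC, 75% of endothelial and 50% of macrophage markers, beside 29% of all genes tested. In bulk RNA, fewer cells of a type and less RNA per cell cannot be told apart.

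Of the 10 members, 2 fell after neomycin, the receptors Erbb3 and Erbb4, and none rose, with the quasi-likelihood test of edgeR and an adjusted p-value below 0.05 (Benjamini-Hochberg, 15988 genes tested). By DESeq2 the same threshold also gave 2. Among all genes tested 29% were called, 16.1% lower and 12.9% higher. The 2 of 10 members came to 20%, below the share called in either direction and above the share called lower. A count of 2 genes does not set the members apart from this background. Erbb3 and Erbb4 also passed the fold change of 1.5 used by the study. Of all genes 8.84% passed it together with the adjusted p-value, 6.6% lower and 2.24% higher. Control and neomycin ranges were apart for 4 members, Egfr, Erbb3, Erbb4 and Tgfa, against 43.5% of all genes tested. The median log2 fold change (log2FC, neomycin over control) was -0.56 over the 4 receptors, -0.11 over the 6 ligands and -0.00 over all genes tested.

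**Figure D1:**
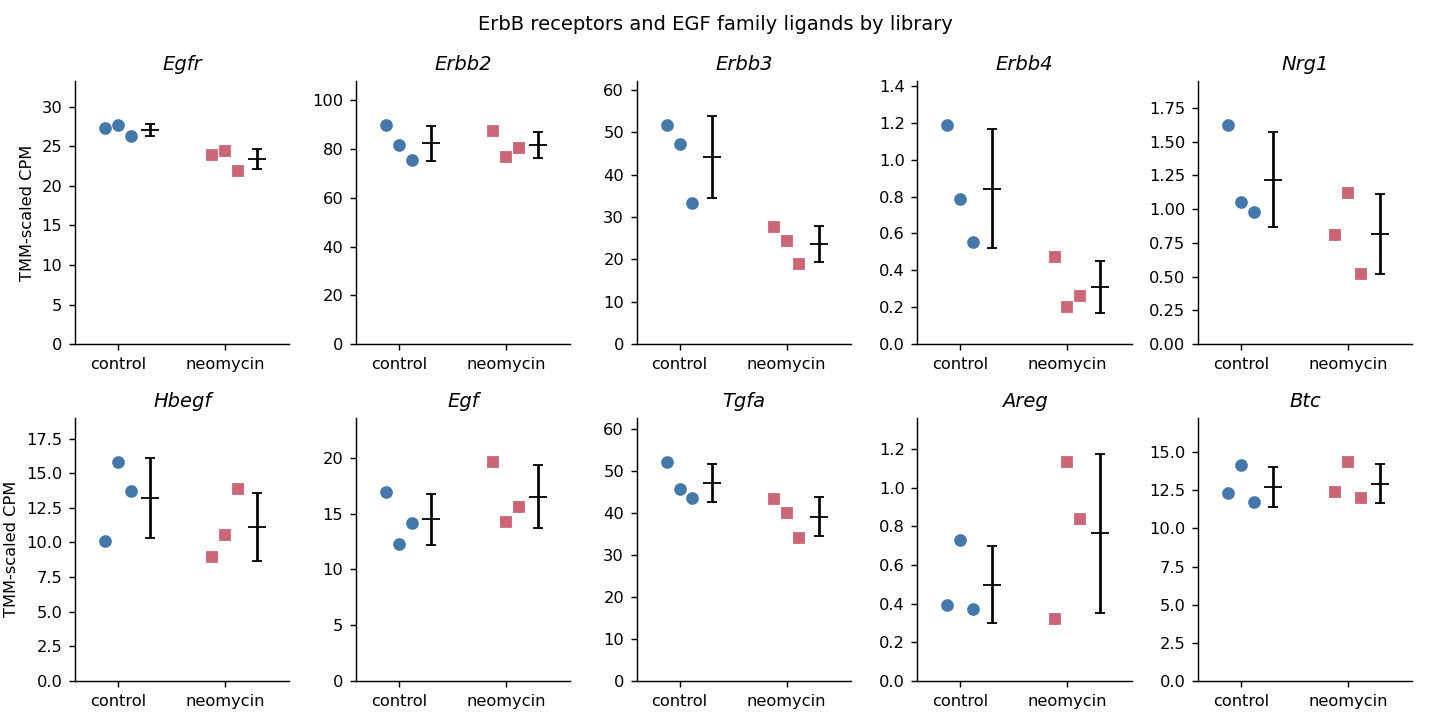
Level of each of the 10 genes in TMM-scaled CPM (vertical axes from 0, a scale of its own for each gene) in the 3 control libraries (circles) and the 3 neomycin libraries (squares), with the mean and SD of each group beside the points. The groups are apart for Egfr, Erbb3, Erbb4 and Tgfa and overlap for the other 6 genes.

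Erbb3, the kinase-poor receptor for neuregulins, lies on chromosome 10 of mm10 from 128567523 to 128589652, and no annotated exon of another gene overlaps its exons. It was at 51.7, 47.3 and 33.3 CPM in control libraries 1, 2 and 3 and at 27.6, 24.3 and 19.0 CPM in neomycin libraries 1, 2 and 3. Every neomycin library was below every control library, although control library 3 lay nearer to the neomycin group than the other two. The mean went from 44.1 ± 9.59 to 23.6 ± 4.34 CPM (SD, n = 3), so the level fell by 46.5%. The log2FC was -0.90 (standard error, SE, 0.16, 95% interval -1.24 to -0.56), with an adjusted p of 0.00164 (edgeR). Only 5.12% of the genes tested had a lower log2FC.

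Schwann cell and glia markers were set beside Erbb3. Of 14 such markers 13 were tested. S100b and Fabp7 rose, Mbp fell and 10 were not called, with a median log2FC of 0.07. The called markers were 23.1% of those tested, near the 29% of all genes tested. Their summed level was 669 to 746 CPM in control and 731 to 754 CPM after neomycin, and without Sox10, the most abundant, 324 to 376 and 383 to 408 CPM. Sox10, a transcription factor of Schwann cells that is also known from the cochlear epithelium, was at 355 ± 21.7 CPM in control and 347 ± 1.95 CPM after neomycin (SD, n = 3), a log2FC of -0.03 (adjusted p = 0.797, edgeR). S100b, which supporting cells (SCs) also express, rose from 60.6 ± 5.82 to 112 ± 5.89 CPM. Mbp, which encodes myelin basic protein, fell from 76.2 ± 7.59 to 62.3 ± 6.86 CPM. The Mbp groups overlapped, with control library 3 at 68.0 CPM and neomycin library 3 at 69.8 CPM.

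**Figure D2:**
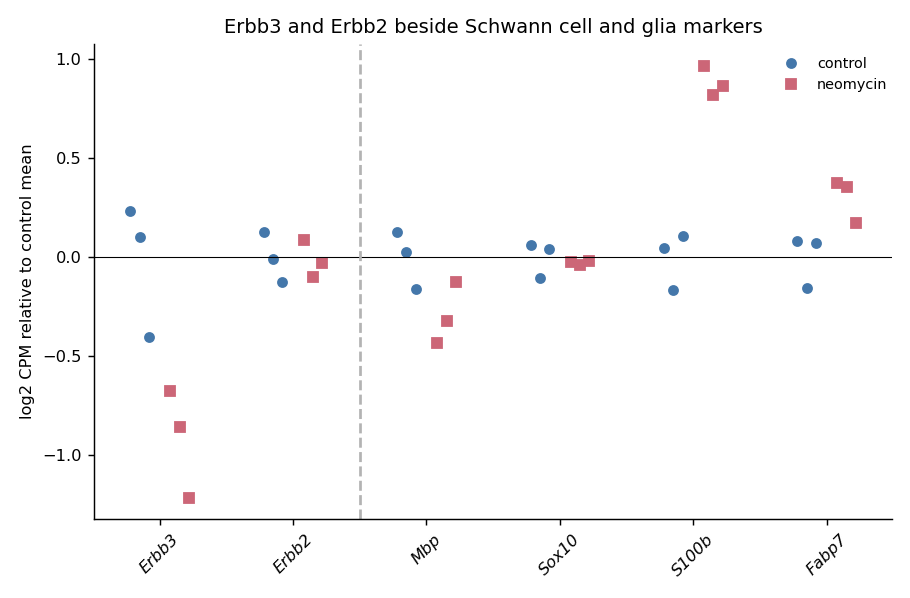
Level of Erbb3, Erbb2, Sox10 and the 3 Schwann cell and glia markers called (Mbp, S100b and Fabp7) in each library as log2 CPM relative to the mean of the control group (vertical axis); circles are control and squares neomycin libraries. Erbb3 lies below its control range in all 3 neomycin libraries, while Sox10 stays near 0 and S100b lies above its control range.

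Other cell types were set beside Erbb3 in the same way. Of 13 SC markers 4 were lower and 2 higher, with a median log2FC of -0.06. Their sum was 5119 to 6289 CPM in control and 6652 to 9725 CPM after neomycin, and the rise lay in Tectb, since the other 12 summed to 1418 to 1467 and 1407 to 1570 CPM. Past the fold change threshold were Prox1 and Fgfr3, which fell, and Tectb, which rose. Fgfr3 went from 165 ± 6.70 to 104 ± 8.87 CPM and Prox1 from 4.08 ± 1.12 to 1.49 ± 0.328 CPM. Of 14 neuron markers 4 were lower, the neurofilament genes Nefl, Nefm and Nefh and the synaptic gene Snap25, and 3 were higher, Ntrk2, Isl1 and Syt1. Summed neuron markers were at 407 to 513 and 429 to 481 CPM. Of 10 mesenchyme markers 3 fell, Col1a1, Col3a1 and Pdgfrb, and 2 rose, Dcn and Tbx18, with sums of 6009 to 6569 and 6412 to 6627 CPM. The called shares were 46.2% of SC, 50% of neuron and 50% of mesenchyme markers, beside 29% of all genes tested. No marker in any of these lists was without reads in all libraries. Whether any of these cell types carries the change in Erbb3 was not tested. The genes whose levels over the 6 libraries were most like those of Erbb3 were Creb3l2 and Crebbp, both regulators of transcription, at a root mean square difference of 0.0337 and 0.0530 in log2 CPM. The log2FC of Creb3l2 was -0.96 and that of Crebbp -0.86.

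Erbb4, the other neuregulin receptor and the one with a full kinase, was barely expressed. It lies on chromosome 1 from 68032186 to 69108059. It had 82, 41 and 31 reads in control libraries 1, 2 and 3 and 25, 12 and 14 reads in the neomycin libraries, or 0.552 to 1.19 CPM against 0.203 to 0.471 CPM. The groups did not overlap, but the highest neomycin library and the lowest control library were close. The mean fell from 0.842 ± 0.322 to 0.312 ± 0.141 CPM (SD, n = 3), a log2FC of -1.44 (SE 0.47, 95% interval -2.46 to -0.42, adjusted p = 0.0369, edgeR). The call rested on single libraries. Without control replicate 1 or 2 the adjusted p (edgeR) was 0.181 or 0.0864, and without neomycin replicate 2 or 3 it was 0.132 or 0.105.

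Erbb2, the ligandless partner, was the most abundant member and did not differ detectably. It lies on chromosome 11 from 98412470 to 98437716. It was at 90.0, 81.9 and 75.5 CPM in the control libraries and 87.5, 76.8 and 80.7 CPM in the neomycin libraries. All 3 neomycin values lay within the control range. The log2FC was -0.01 (SE 0.08, adjusted p = 0.911, edgeR), with a 95% interval from 12.5% lower to 11.9% higher. Its sign changed with the scaling and with single libraries left out.

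Egfr, the receptor for EGF and TGF-alpha, lies on chromosome 11 from 16752203 to 16918158. It was at 27.3, 27.7 and 26.3 CPM in control and 24.0, 24.4 and 21.9 CPM after neomycin. The groups did not overlap, yet the difference was small. The log2FC was -0.21 (SE 0.08), and the adjusted p of 0.0762 (edgeR) missed the threshold.

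Since Erbb2 was level, the other receptors were also read as a ratio to Erbb2 within each library, which does not depend on library scaling. Erbb3 reads came to 57.5%, 57.7% and 44.1% of the Erbb2 reads in control libraries 1, 2 and 3 and to 31.5%, 31.6% and 23.5% in the neomycin libraries. The log2 ratio of Erbb3 to Erbb2 changed by -0.88 after neomycin, and that of Erbb4 to Erbb2 by -1.41. For both ratios the groups did not overlap, and an exact two-sided permutation test gave p = 0.1, the smallest that 3 libraries against 3 allow (0.15 adjusted over 3 ratios). The log2 ratio of Egfr to Erbb2 differed by -0.20, and its groups overlapped (exact two-sided permutation test, p = 0.2, also 0.2 adjusted). The ratios were not corrected for exon length, and a trend on length is given below. Erbb2 has 5.21 kb of exons, Erbb3 6.02 kb, Egfr 11.3 kb and Erbb4 12.4 kb.

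**Figure D3:**
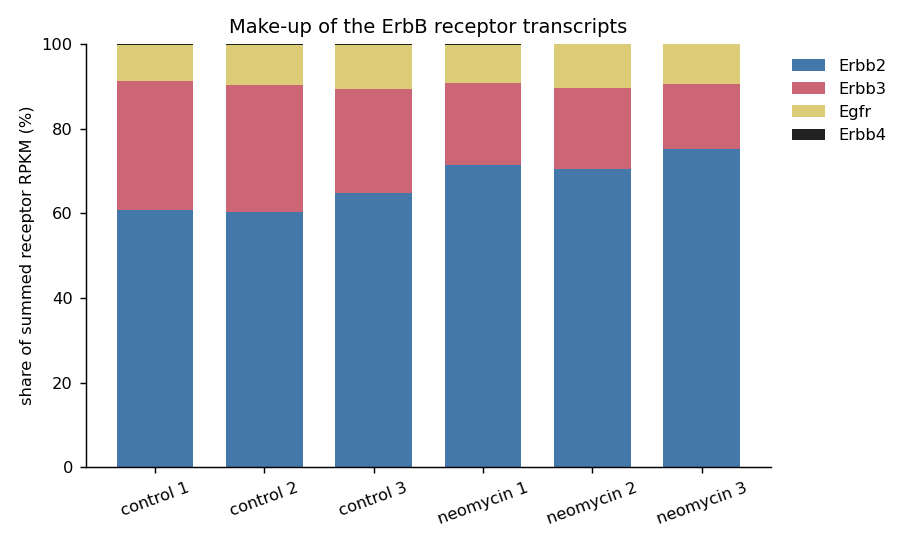
Share of each receptor in the summed RPKM of the 4 receptors (vertical axis, percent) in each library (horizontal axis). Erbb3 made up 24.7% to 30.3% of the sum in control and 15.3% to 19.5% after neomycin; Erbb4 is at most 0.339% and hardly visible.

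Levels of different genes were compared only per length, as RPKM, here the TMM-scaled CPM divided by the exon length in kilobases. Exon length merges all annotated exons of a gene and can exceed the length of its main transcript. In control, Erbb2 stood highest at 15.8 ± 1.39 RPKM (SD, n = 3). Erbb3 at 7.33 ± 1.59 and the ligand Tgfa at 7.27 ± 0.703 RPKM followed, and their ranges overlapped. Btc, Hbegf and Egfr came next at 2.82 ± 0.284, 2.74 ± 0.599 and 2.39 ± 0.0643 RPKM, each overlapping its neighbour in the order. Egf at 1.28 ± 0.206 and Areg at 0.410 ± 0.165 RPKM were each apart from their neighbours. Nrg1 at 0.118 ± 0.0340 and Erbb4 at 0.0681 ± 0.0261 RPKM closed the order with overlapping ranges. After neomycin Erbb3 stood at 3.92 ± 0.721 RPKM, below Tgfa at 6.03 ± 0.725 RPKM and overlapping Btc, and Erbb4 at 0.0252 ± 0.0114 RPKM no longer overlapped Nrg1. The other places in the order were as in control.

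Erbb2 supplied 60.3% to 64.7% of the summed receptor RPKM in the control libraries and 70.4% to 75.2% in the neomycin libraries. Among the 6 ligands, Tgfa supplied 46.2% to 54.2% of their summed RPKM in control and 40.7% to 50.01% after neomycin. Nrg1 supplied at most 1.06% in any library. These shares are descriptive and were not tested.

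None of the 6 ligands was called at an adjusted p-value under 0.05 by edgeR or by DESeq2, and by edgeR 1 of them, Tgfa, had an unadjusted p under 0.05. Tgfa, the most abundant ligand, encodes a membrane-bound precursor that is cut to release TGF-alpha. It was at 52.3, 45.7 and 43.5 CPM in control and 43.4, 39.9 and 34.1 CPM after neomycin. The groups were apart only by the narrow gap between control library 3 and neomycin library 1. The log2FC was -0.27 (SE 0.10, adjusted p = 0.0581, edgeR). Leaving out a library moved it either way, with an adjusted p (edgeR) of 0.217, 0.112 and 0.0390 without control replicate 1, 2 or 3 and of 0.0253, 0.132 and 0.228 without neomycin replicate 1, 2 or 3. It was 0.0416 (edgeR) when every gene with at least 1 count was tested.

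Nrg1, the neuregulin that activates ERBB3, had few reads in these explants. It had 112, 55 and 55 reads in control and 43, 66 and 28 after neomycin. This was 1.62, 1.05 and 0.979 CPM against 0.810, 1.12 and 0.521 CPM, and neomycin library 2 lay inside the control range. The log2FC was -0.58 with a 95% interval from -1.38 to 0.22 (adjusted p = 0.258, edgeR), wide enough to hold a fall as large as that of Erbb3. The files count reads per gene and do not separate the neuregulin isoforms.

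Hbegf encodes a heparin-binding ligand that is rapidly induced by injury in many epithelia. It was at 10.1, 15.8 and 13.7 CPM in control and 8.98, 10.54 and 13.8 CPM after neomycin, and the groups overlapped (log2FC -0.25, SE 0.18, adjusted p = 0.318, edgeR). Areg, which encodes amphiregulin and is a known target of YAP, had 27, 38 and 21 reads in control and 17, 67 and 45 reads after neomycin. The highest and the lowest Areg levels of all 6 libraries were both in the neomycin group. Its log2FC of 0.63 had a SE of 0.49 (adjusted p = 0.361, edgeR).

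Egf was at 16.9, 12.3 and 14.2 CPM in control and 19.7, 14.3 and 15.6 CPM after neomycin. Each neomycin value was above the control median but the ranges overlapped, with a log2FC of 0.19 (SE 0.14, adjusted p = 0.343, edgeR). Btc, the gene of betacellulin, was at 12.3, 14.2 and 11.7 CPM in control and 12.4, 14.4 and 12.0 CPM after neomycin. Its 95% interval ran from 14.6% lower to 21.1% higher (log2FC 0.02, adjusted p = 0.898, edgeR). Its sign turned negative with a GC content correction or without control replicate 3 or neomycin replicate 2.

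The 5 remaining ligands of the family were scarce. Nrg4, a ligand of ERBB4, was at 1.75 ± 0.328 CPM in control and 1.94 ± 0.372 CPM after neomycin (SD, n = 3). Nrg2 was at 0.579 ± 0.106 and 0.616 ± 0.324 CPM and Nrg3 at 0.307 ± 0.261 and 0.326 ± 0.188 CPM. None of these 3 was called (adjusted p = 0.694, 0.903 and 0.972, edgeR). Ereg, with 0 to 10 reads per library, and Epgn, with 0 to 2, were left out by the filter on low counts.

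Where HTSeq counting ignored strand, exons on the opposite strand could change the counts of a few members. In which direction was not tested. Such exons overlapped 1107 bases of Egf, 482 of Nrg1, 118 of Tgfa and 9 of Erbb2, and none of Erbb3, Erbb4, Egfr, Hbegf, Areg or Btc.

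**Figure D4:**
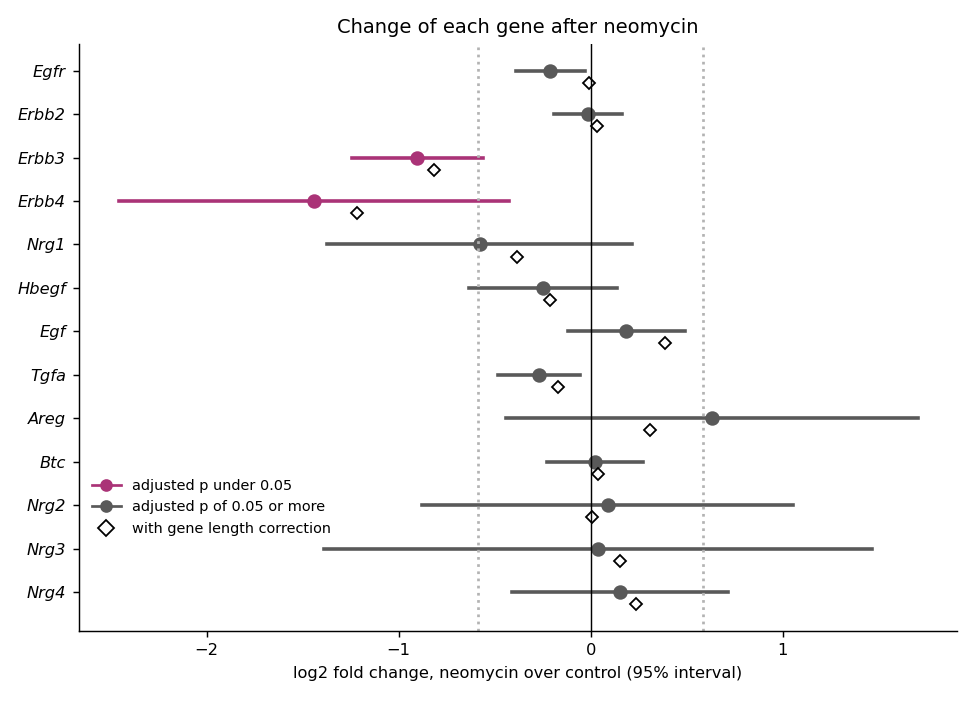
Log2FC of neomycin over control (horizontal axis) for the 10 genes and 3 further ligands; circles are the estimates, bars their 95% intervals, diamonds the estimates with a gene length correction, and dotted lines a fold change of 1.5. Erbb3 and Erbb4 are called; the diamond of Egfr sits near 0 and that of Egf farther to the right than its circle.

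The log2FC fell with merged exon length over the whole table, and several members have a long one. Since the exons of all isoforms are merged, it need not be the length of any single transcript. Among 2446 tested genes with less than 2 kb of exons the median log2FC was 0.26, and it was -0.12 among 2091 genes of 6 to 8 kb and -0.23 among 1439 genes of 10 kb or more. In the longest class 38.6% of genes were called lower and 1.81% higher. Erbb4, Egfr, Egf and Nrg1 belong to that class with 12.4, 11.3, 11.3 and 10.4 kb, and Erbb3 and Tgfa have 6.02 and 6.49 kb. Each library was therefore also fitted after removing its trend on exon length. Erbb3 then had a log2FC of -0.82 (adjusted p = 0.00135, edgeR). Erbb4 had -1.22, and its adjusted p of 0.0677 (edgeR) no longer passed. The difference in Egfr shrank to -0.01 (adjusted p = 0.953, edgeR). Egf instead moved up, to 0.39 (adjusted p = 0.0440, edgeR), so that it was called higher under this correction alone among the fits without a block.

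Genes that act around the receptors were taken from 5 lists, the other ligands included, with 84 genes of which 82 were tested. Of these, 28 were lower and 1 higher, or 35.4% called beside 29% of all genes tested. With the gene length correction 17 of the 82 were called, or 20.7%, below the 23.5% of all genes (3762) called in that fit. The count also depended on single libraries, with 18 and 15 called without control replicate 1 or 2 and 15 and 18 without neomycin replicate 2 or 3. In those same fits 20.2%, 15.9%, 15.6% and 18.5% of all genes were called.

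Among 12 genes of ligand shedding, the cutting of membrane-bound ligands, 5 fell and none rose, with a median log2FC of -0.29. The called genes were 41.7% of the list, beside 29% of all genes tested (16.1% lower). Bace1, a protease that cuts neuregulin 1, went from 75.3 ± 7.74 to 55.9 ± 4.57 CPM (log2FC -0.43, adjusted p = 0.00444, edgeR). Adam9 went from 54.2 ± 4.57 to 42.1 ± 0.680 CPM, and the proprotein convertase gene Furin from 171 ± 8.95 to 142 ± 1.34 CPM. Rhbdf2, which encodes the ADAM17 partner iRhom2, and Adam12 also fell. The main sheddase genes were not called, Adam17 at 96.0 ± 2.38 and 89.7 ± 4.56 CPM and Adam10 at 213 ± 5.81 and 226 ± 12.6 CPM. With the length correction 2 of the 12 were called, and without control replicate 1 or 2 or neomycin replicate 2 it was 2, 3 and 2. Of all genes 23.5%, 20.2%, 15.9% and 15.6% were called in those fits.

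Among 20 genes that inhibit the receptors or control their turnover, 9 fell and none rose, with a median log2FC of -0.25. This was 45% called, beside 29% of all genes tested (16.1% lower). The largest change in any of the 5 lists was that of Cbl, a ubiquitin ligase that marks EGFR for degradation, which went from 5.64 ± 2.68 to 1.24 ± 0.553 CPM (log2FC -2.17, SE 0.40, adjusted p = 0.00215, edgeR). Control library 3, at 2.54 CPM, lay nearer to the neomycin range of 0.652 to 1.75 CPM than to control libraries 1 and 2, at 7.12 and 7.25 CPM. Cbl has 12.3 kb of exons, in the longest class above. Socs4, a suppressor of EGFR signaling, went from 4.78 ± 0.955 to 2.13 ± 0.511 CPM. The deubiquitinase gene Usp8 and the phosphatase gene Ptpn12 fell by less, with log2FCs of -0.36 and -0.38. Errfi1, the feedback inhibitor of the ErbB kinases, was at 64.8 ± 13.1 and 51.7 ± 2.39 CPM and was not called (adjusted p = 0.0579, edgeR), nor was Lrig1, at 45.6 ± 1.71 and 40.4 ± 2.99 CPM. With the length correction 5 of the 20 were called, and without control replicate 2 or neomycin replicate 2 or 3 it was 4 each time. Those fits called 23.5%, 15.9%, 15.6% and 18.5% of all genes.

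Among 25 genes of the adaptors and the RAS-ERK branch, 6 fell and 1 rose, with a median log2FC of -0.11. This was 28% called, beside 29% of all genes tested. Shc4 and Shc3, adaptors of the SHC family, passed the fold change threshold, with Shc4 going from 28.4 ± 2.27 to 17.3 ± 0.373 CPM (log2FC -0.72, adjusted p = 0.000185, edgeR). The docking gene Gab2 had a log2FC of -0.55, the kinase gene Braf -0.39 and the RAS exchange factors Sos2 and Sos1 -0.29 and -0.30. Hras was the gene that rose, from 46.5 ± 4.39 to 55.9 ± 4.65 CPM, although its groups overlapped. Mapk3, the gene of ERK1, was at 191 ± 13.6 and 211 ± 5.17 CPM and was not called. The count of 7 called genes was 3, 3 and 11 without control replicate 1, 2 or 3 and 4 and 3 without neomycin replicate 2 or 3. With the replicate number as a block it was 14, and 12 with the block and a GC content correction. Of all genes, 20.2%, 15.9% and 33% were called without control replicate 1, 2 or 3. Without neomycin replicate 2 or 3 it was 15.6% and 18.5% of all genes, and 37.6% and 38.3% in the block fits.

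Among 22 genes of the PI3K-AKT, PLC gamma and STAT branches, 8 fell and none rose, with a median log2FC of -0.15. The called genes were 36.4% of the list, beside 29% of all genes tested (16.1% lower). Akt1, at 274 ± 6.92 and 257 ± 0.853 CPM, and Akt2, at 255 ± 12.0 and 271 ± 6.58 CPM, were not called. Pik3cd, which encodes a catalytic PI3K subunit known mainly from leukocytes, went from 9.32 ± 1.49 to 5.61 ± 0.739 CPM, past the fold change threshold (log2FC -0.74, adjusted p = 0.00462, edgeR). Pdpk1, Mtor and Plcg1 had log2FCs of -0.47, -0.45 and -0.47. With the length correction, and without control replicate 2 or neomycin replicate 2, 5 of the 22 were called in each case. Those fits called 23.5%, 15.9% and 15.6% of all genes.

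**Figure D5:**
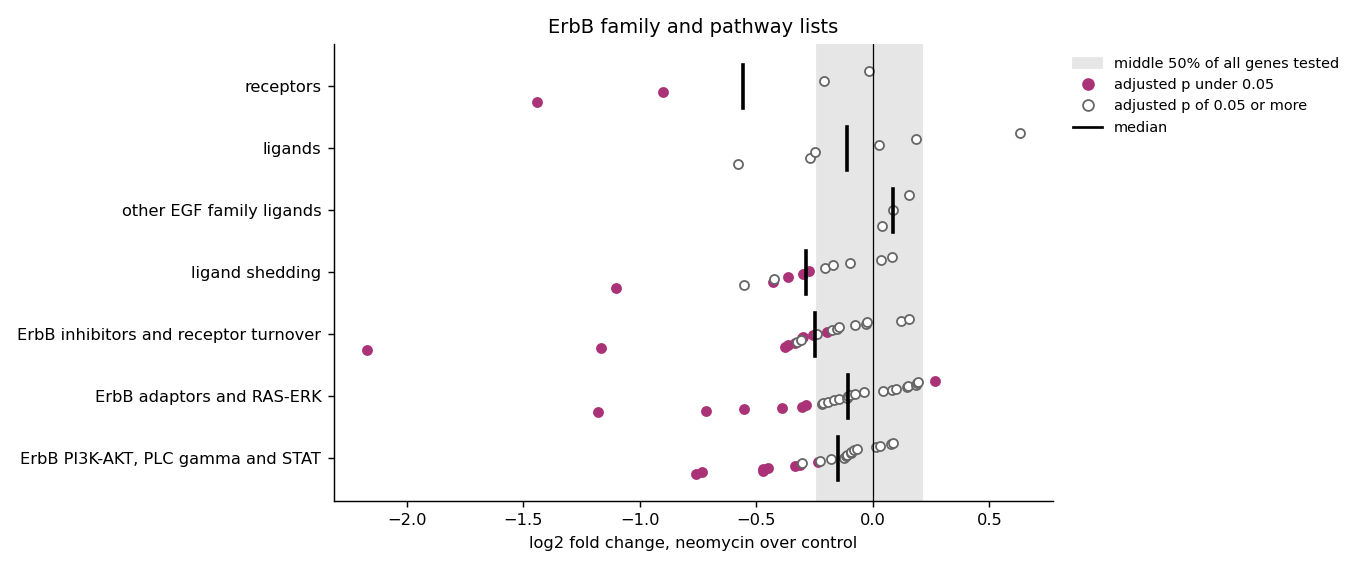
Log2FC of neomycin over control (horizontal axis) for each tested gene of the receptors, the ligands and the 5 pathway lists (rows); filled points have an adjusted p-value under 0.05, bars are medians and the grey band holds the middle 50% of all genes tested. The medians of the receptors and of the shedding and inhibitor lists lie at -0.56, -0.29 and -0.25, and Cbl is the point at -2.17.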

How the data were processed

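RNA-seq libraries were made from 3 control and 3 neomycin pools of cochlear explants. The authors deposited a table of raw counts for each gene symbol, not normalized, after trimming with Trimmomatic 0.23, alignment to mm10 with HISAT2 and counting with HTSeq. Base calls came from CASAVA 1.8. How HTSeq treated strand and multi-mapped reads is not given in the sources used here. Groups and replicate numbers came from the sample titles.

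From the counts, edgeR 4.0.16 under R 4.3.3 was used with filterByExpr, TMM scaling and the quasi-likelihood test of neomycin against control, fitted on the whole table with Benjamini-Hochberg adjustment. Standard errors were taken as the absolute log2FC over the root of the F statistic. The authors counted on the UCSC annotation, while exon lengths and coordinates here are from GENCODE M21 on mm10, with a length for 99.2% of the genes tested. Alternatives used DESeq2 1.42.0, limma 3.58.1, other scalings and filters, length and GC content corrections (lowess, span 0.3), the replicate number as a block, and each library left out. The code was tested on simulated data. Plots used Python 3.11.15 and matplotlib 3.10.9. Ratios used counts plus 0.5.

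The members and lists were chosen with earlier results of these data known. The rule for named genes took all members and the other 5 ligands, the 4 genes of each list with the smallest adjusted p, up to 6 of a list past the fold of 1.5, and for called members of at least 1 CPM the 2 genes nearest in pattern. Other genes named from the lists, those not called included, were chosen after their values were seen, as were the exon length classes. Some genes of the lists entered the counts and are not reported here by name.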

Additional observations from a re-analysis of the deposited data

How the results depend on the processing

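Over 17 alternatives, Erbb3 kept its direction and its call in all 17, with log2 fold changes from -1.06 to -0.76 and adjusted p-values up to 0.0121 (edgeR). Erbb4 kept its direction and lost its call in 6 of 16. It had no value with a filter of 1 CPM in 3 samples, where 1 member was called. With each library left out in turn, 1 to 3 members, 15 to 33 pathway genes and 2518 to 5341 of all genes were called, against 2, 29 and 4629. The gene length correction left 17 pathway genes and 3762 of all genes; the cause of the other moves was not tested. Signs of values near 0 were not stable. The log2FC of Erbb2 was 0.00653 with upper-quartile scaling, 0.0359 with the length correction and -0.0672 to 0.0595 with libraries left out. Btc had -0.0254 with the GC correction and -0.0600 to 0.11 with libraries left out. Nrg2 had -0.0196 with limma-voom, -0.00612 with the GC correction and -0.43 to 0.33 with libraries left out, and Nrg3 -0.36 to 1.04 with libraries left out.

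The replicate numbers were not taken as pairing the libraries in the main fit, and the sample titles do not state a pairing. The deviations from the group means correlated at 0.354 and 0.222 for numbers 1 and 3 but only at 0.0548 for number 2 (across 14036 genes). Still, 5 of 6 libraries correlated best with their own number. These values do not settle whether the numbers mark pairs. With the replicate number as a block 4 members, 41 pathway genes and 6014 genes in all were called, Tgfa (adjusted p = 0.00639, edgeR) and Egfr (0.0377, edgeR) being added, and also 4 members with a GC correction beside the block. With the block and the length correction, Erbb2 was at 0.0372, Nrg2 at -0.0700 and Egf at 0.39 (adjusted p = 0.00793, edgeR). With the block and the GC correction, Btc was at -0.0276 and Nrg2 at -0.0764. Low read numbers limit Erbb4, Nrg1, Areg, Nrg2 and Nrg3, whose intervals are the widest.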
